A study of Mus musculus with 6 samples.

Results

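The genes described here are 5 matrix metalloproteinases (Mmp8, Mmp9, Mmp12, Mmp13 and Mmp14), 3 of their tissue inhibitors (Timp1, Timp2 and Timp3) and the membrane proteases Adam8 and Adam17. They were measured in BV-2 cells, a line of mouse microglia immortalised by a retrovirus carrying raf and myc oncogenes. All 10 had a row in the array's value table that named exactly 1 gene, out of 22180 genes with such a row, and each had only 1 row. Rows were taken by gene name, and the choice of genes was made with earlier results of these data known. RNA from 3 control samples, which the labels call resting, was compared with RNA from 3 samples given lipopolysaccharide (LPS, serotype O111:B4) at 1 µg/mL for 24 h. When control cells were harvested is not given in the sources used here. Both groups were plated in medium with reduced serum. Replicates were numbered 1 to 3 in each group, and the labels do not say that they were separate cultures, so the error behind each p-value is that between arrays and may be technical. BV-2 is 1 immortalised line, and bulk RNA cannot tell fewer expressing cells from less RNA per cell.

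Matrix metalloproteinases are zinc-dependent enzymes made as inactive precursors that cut collagens, elastin and other matrix proteins once the propeptide is removed. TIMPs bind the active site and block it. ADAM proteases share the zinc-binding catalytic domain but sit in the cell membrane, where they release the outer parts of surface proteins such as the precursor of tumour necrosis factor. In microglia and macrophages these enzymes are known for clearing matrix during migration and for cytokine release.

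Values were log2 expression, 1 value for each row and array. As a guide to background, the 95th percentile of the mean level of 1443 rows for olfactory, vomeronasal and taste receptors was 3.08 on the log2 scale, and rows with a mean below it are called dim. Of the microglia and macrophage markers, 11 of 11 with a row had a mean above this guide. None of 8 neutrophil, 6 astrocyte or 5 oligodendrocyte markers did, while 1 of 6 neuronal, 1 of 6 fibroblast and 2 of 6 endothelial markers did, the last being the growth factor receptors Kdr and Flt1. Array medians ran from 2.88 to 2.97. Rows above the guide were lower in control replicate 2, with a median difference of -0.26 from the other controls. The median difference of such rows from the other arrays of the LPS group was 0.14 in LPS replicate 3 and -0.20 in LPS replicate 1.

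No member passed the threshold with p-values adjusted over all rows: 0 of 10 were called higher and 0 of 10 lower in limma at adjusted p under 0.05. Among all 41345 rows 80, or 0.193%, were called, all of them higher. At an unadjusted p under 0.05 in the limma fit 1 member, Mmp9, was higher and 0 were lower, beside 5.36% of genes higher and 1.19% lower. The median log2 fold change of the members was 0.03, as it was over 1 row per gene of all 22180 genes (0.03). Members differed far more in how single arrays behaved, and 4 of the 10 stood over 1 log2 unit higher in LPS replicate 3 than in the mean of the other LPS arrays, beside 2.55% of all genes. The plot of every member on every array shows both features.

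**Figure D1:**
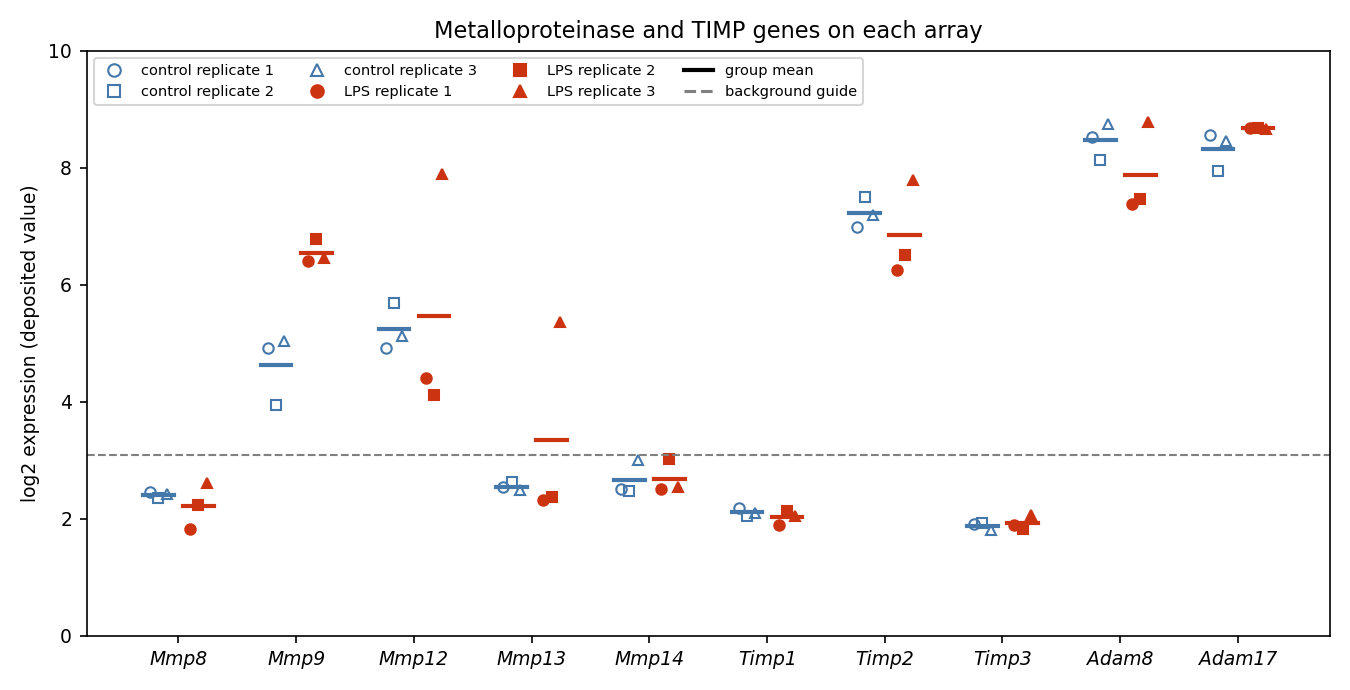
Log2 expression of each member (x axis) on each of the 6 arrays, with open blue symbols for control and filled red symbols for LPS, marker shape for the replicate number, and a bar at each group mean of 3 arrays. The dashed line is the background guide at 3.08. Mmp9 is the member whose LPS values, from 6.41 to 6.77, stand well clear of the control values, and LPS replicate 3 (red triangle) sits far above the other LPS arrays for Mmp12 and Mmp13.

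Mmp9, or gelatinase B, cuts denatured collagen and basement membrane collagen. Its row (transcript cluster 17379606) read 4.91, 3.94 and 5.04 in control replicates 1 to 3 and 6.41, 6.77 and 6.46 in LPS replicates 1 to 3. The groups did not overlap, and the spread was larger among the controls (4.63 ± 0.60, SD, n = 3) than among the LPS arrays (6.55 ± 0.20, SD, n = 3), with control replicate 2 lower than the others. The log2 fold change was 1.92 (SE 0.31, limma adjusted p = 0.13), or 3.78-fold, with a moderated 95% interval from 1.19 to 2.64. Mmp9 stood at rank 151 of 41345 rows by p. Over all alternatives its log2 fold change lay between 1.57 and 2.12, and its limma adjusted p between 0.043 and 0.52. It passed the threshold where only rows with 1 symbol were tested (limma adjusted p = 0.046, with 0.497% of rows called) and where 1 row per gene was tested (limma adjusted p = 0.043, 0.532% called). It also passed with array weights (limma adjusted p = 0.049, 0.319% called), and when LPS replicate 3 was left out together with control replicate 2 (limma adjusted p = 0.048, 0.53% called). Without control replicate 2 alone the log2 fold change was 1.57 (limma adjusted p = 0.058).

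Mmp12, or macrophage elastase, degrades elastin. Its row (transcript cluster 17514495) read 4.92, 5.69 and 5.13 in control replicates 1 to 3, against 4.41, 4.11 and 7.90 in LPS replicates 1 to 3. LPS replicates 1 and 2 were thus below every control, and LPS replicate 3 was above every control, so the groups overlapped through that array. The log2 fold change over all arrays was 0.22 (SE 0.96, limma adjusted p = 1.00), with a 95% interval from -2.07 to 2.51. Without LPS replicate 3 the direction turned, to -0.99 (SE 0.27, limma adjusted p = 0.41), which is 1.99-fold lower in LPS. It was 0.76 without LPS replicate 1, 0.90 without LPS replicate 2, and between 0.061 and 0.44 with 1 control left out. In LPS replicate 3 Mmp12 lay 3.64 log2 units above the mean of LPS replicates 1 and 2, the second highest such excess among 22180 genes.

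Mmp13, or collagenase 3, cuts fibrillar collagen. Its row (transcript cluster 17514482) read 2.53, 2.62 and 2.49 in controls and 2.32, 2.36 and 5.36 with LPS. Among the 6 arrays LPS replicate 3 was the only one above the background guide. The fitted log2 difference of 0.80 (SE 0.78, limma adjusted p = 1.00) rests on that array, and it was -0.21 without it, with every remaining value below the guide. It was 1.31 without LPS replicate 1 and 1.29 without LPS replicate 2. LPS replicate 3 stood at least 2.27 log2 units above the other LPS arrays, taking the background guide in place of their values, and 3.02 above the values as deposited. After quantile normalization, tried after the data were seen, the excess of Mmp12 was 3.42 (rank 2). That of Mmp13 was 2.77 (rank 7, against rank 5 as deposited).

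**Figure D2:**
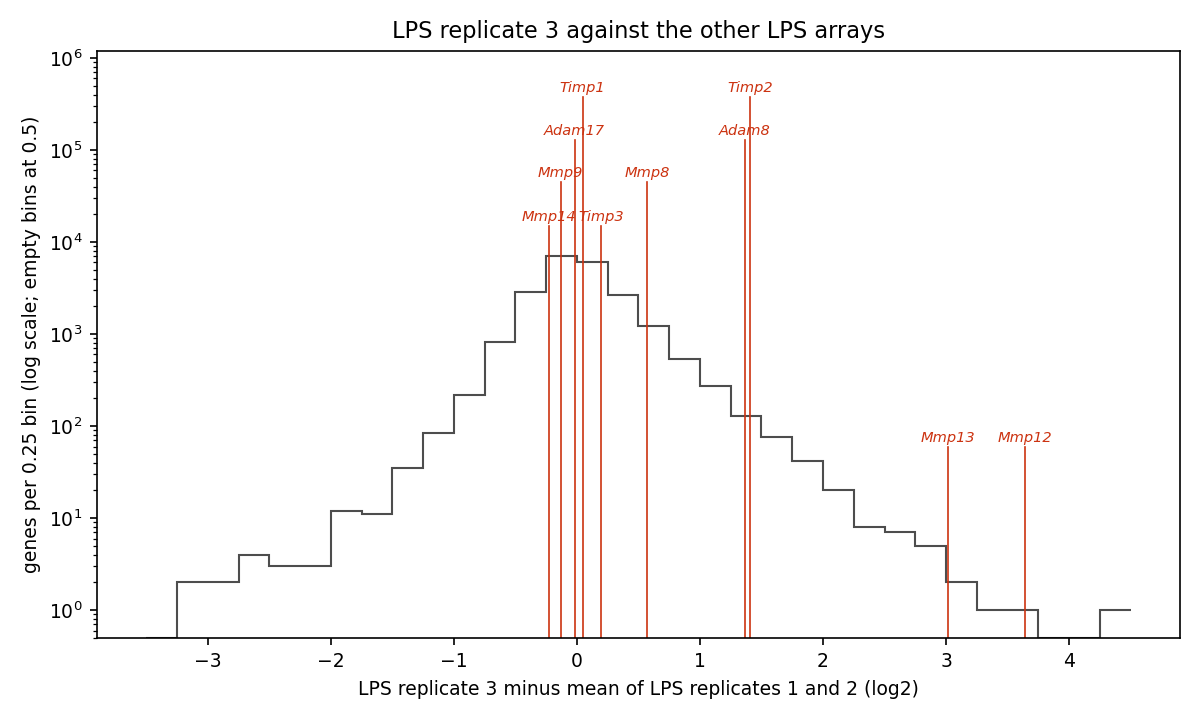
Number of genes per bin of 0.25 (y axis, log scale) by the value of LPS replicate 3 minus the mean of LPS replicates 1 and 2 (x axis, log2 units), over 22180 genes with 1 row each. Red lines mark the 10 members: Mmp12 at 3.64 and Mmp13 at 3.02, a difference from values below the background guide, lie in the far right tail, Timp2 at 1.40 and Adam8 at 1.37 on its shoulder, and the others near the centre, with Mmp8 at 0.57.

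Mmp12 and Mmp13 are neighbours in a run of 10 Mmp genes on mouse chromosome 9, in RefSeq's order for GRCm38.p6. The order is Mmp13, Mmp12, Mmp1b, Mmp3, Mmp1a, Mmp10, Mmp8, Mmp27, Mmp20 and Mmp7. Whether the excess in LPS replicate 3 extended along the run cannot be told, since the other genes were below the background guide. The next genes after Mmp12 were Mmp1b, with an excess of -0.17, and the stromelysin Mmp3, with -0.18. Further along the run, Mmp1a had 0.35, Mmp10 had 0.53 and Mmp8 had 0.57. These 5 genes stayed below the background guide on every array, as did Mmp27, Mmp20 and Mmp7.

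**Figure D3:**
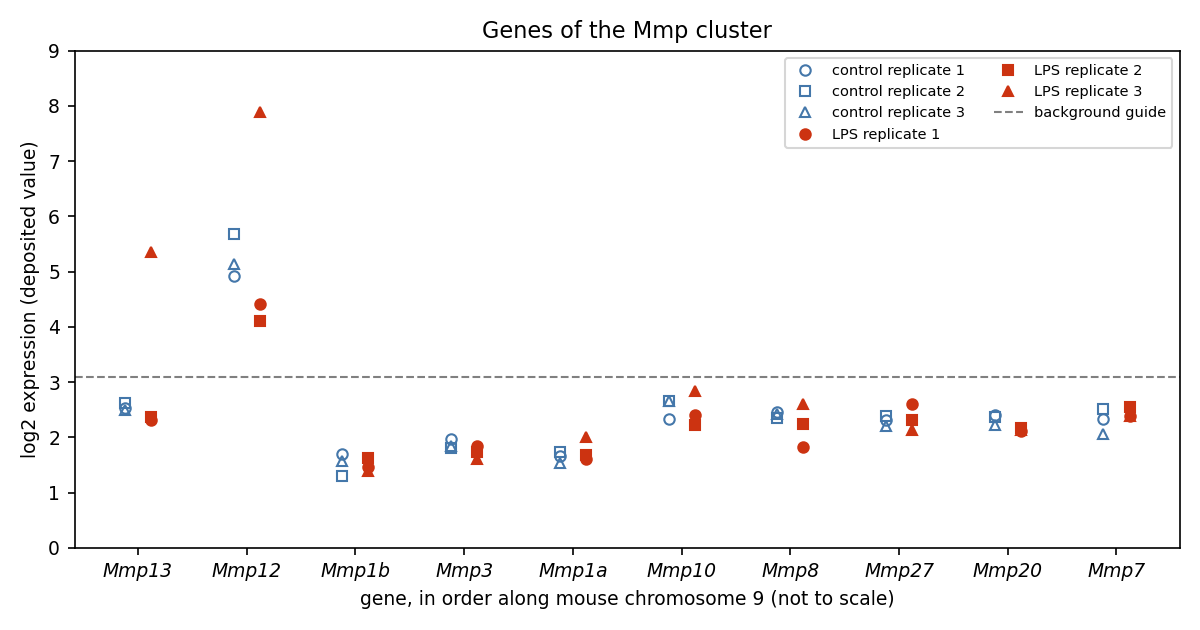
Log2 expression (y axis) of the 10 Mmp genes of the chromosome 9 run, in gene order and not to scale (x axis), with open blue symbols for control and filled red symbols for LPS arrays and the background guide as a dashed line. Apart from Mmp13 in LPS replicate 3 (5.36) and Mmp12 on all arrays, all values lie below 3.08.

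To show what stands before the start sites of these neighbours, the 250 bases upstream of each start in RefSeq's promoter table (GRCm38.p6) were searched on both strands for 5 motifs. These were the AP-1 motif TGANTCA, the NF-kappaB consensus, the PU.1 core GAGGAAG, an interferon response motif and the TATA box TATAAA. The table held windows for 9 of the 10 members, Mmp12 with 2 starts. Mmp9 had none. Capitals mark matches, and no match overlapped another.
Mmp13, chr9:7272264-7272513, plus strand: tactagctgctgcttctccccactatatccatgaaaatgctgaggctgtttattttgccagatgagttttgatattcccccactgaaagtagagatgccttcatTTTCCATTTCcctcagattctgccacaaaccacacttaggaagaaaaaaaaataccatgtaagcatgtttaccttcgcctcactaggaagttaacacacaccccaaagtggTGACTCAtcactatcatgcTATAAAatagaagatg
Mmp12 start 1, chr9:7344147-7344396, plus strand: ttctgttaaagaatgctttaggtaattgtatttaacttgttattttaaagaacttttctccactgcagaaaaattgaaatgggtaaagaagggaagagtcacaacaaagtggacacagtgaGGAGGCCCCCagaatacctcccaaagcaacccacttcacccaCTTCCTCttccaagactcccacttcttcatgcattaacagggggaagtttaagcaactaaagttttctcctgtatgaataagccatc
Mmp12 start 2, chr9:7347124-7347373, plus strand: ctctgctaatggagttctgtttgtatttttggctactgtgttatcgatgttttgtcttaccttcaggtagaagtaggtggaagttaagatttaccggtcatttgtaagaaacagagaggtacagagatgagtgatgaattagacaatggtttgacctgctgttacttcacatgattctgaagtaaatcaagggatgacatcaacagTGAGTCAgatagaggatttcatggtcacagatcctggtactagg
Mmp8, chr9:7558179-7558428, plus strand: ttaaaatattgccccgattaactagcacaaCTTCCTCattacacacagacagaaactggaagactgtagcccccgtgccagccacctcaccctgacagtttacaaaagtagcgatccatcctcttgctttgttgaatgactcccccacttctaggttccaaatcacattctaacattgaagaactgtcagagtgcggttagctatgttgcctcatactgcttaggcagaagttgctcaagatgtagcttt

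The AP-1 motif lay 35 to 29 bases before the start of Mmp13 and 44 to 38 bases before start 2 of Mmp12. Of the 10 windows of members 2 held it, beside 6.75% of all 32851 windows. The Mmp13 window also held the letters of the TATA box (12.4% of all windows), 16 to 11 bases before the start, and the interferon response motif (2.98%). Start 1 of Mmp12 held the NF-kappaB consensus (7.25% of all windows) and the PU.1 core, and the PU.1 core was also the match in the Mmp8 window (10.6% of all windows). The windows of Mmp14, the 3 TIMP genes, Adam8 and Adam17 held no match. A match describes the letters only and shows no bound factor.

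Mmp8, the neutrophil collagenase, and Mmp14, a membrane-bound enzyme that activates the precursor of gelatinase A, were dim on all arrays. Mmp8 (transcript cluster 17514553) read 2.46, 2.35 and 2.42 in controls and 1.82, 2.24 and 2.60 with LPS. Mmp14 (transcript cluster 17300279) read 2.51, 2.48 and 3.00 in controls and 2.51, 3.02 and 2.53 with LPS. For both genes the groups overlapped and no fold is given, since neither group rose above the guide. The limma adjusted p was 1.00 for each.

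Among the inhibitors, Timp2 was the member above background. Timp2 blocks several metalloproteinases and, with Mmp14, takes part in activating gelatinase A. Its row (transcript cluster 17272770) read 6.99, 7.50 and 7.20 in controls and 6.25, 6.51 and 7.79 with LPS. LPS replicates 1 and 2 were below every control and LPS replicate 3 was above every control, the same arrangement as for Mmp12. The log2 fold change was -0.38 (SE 0.40, limma adjusted p = 1.00), and -0.85 (SE 0.21, limma adjusted p = 0.36) without LPS replicate 3, a 1.80-fold lower level. It shrank to -0.08 without LPS replicate 1, -0.21 without LPS replicate 2 and -0.25 without control replicate 2.

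Timp1 and Timp3 were dim on all 6 arrays. Timp1, an inhibitor that binds Mmp9 and its precursor, had a row (transcript cluster 17533713) at 2.19, 2.04 and 2.10 in controls and 1.89, 2.13 and 2.05 after LPS. Timp3, which is held in the matrix and also inhibits Adam17, had a row (transcript cluster 17236182) at 1.91, 1.93 and 1.81 in controls and 1.89, 1.82 and 2.05 after LPS. Control and LPS values of each overlapped, and no fold is given. Timp4, the remaining family member, was also dim, with a mean of 2.56.

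Adam8 and Adam17 were both well above background on every array. Adam8, a protease of leukocytes that cleaves adhesion molecules, had a row (transcript cluster 17497525) at 8.53, 8.13 and 8.75 in controls and 7.37, 7.46 and 8.78 after LPS. Again LPS replicates 1 and 2 were below every control and LPS replicate 3 was above every control. The log2 fold change was -0.60 (SE 0.40, limma adjusted p = 0.97), and -1.05 (SE 0.22, limma adjusted p = 0.27) without LPS replicate 3, which is 2.07-fold lower. It was smaller without LPS replicate 1, at -0.35, and without LPS replicate 2, at -0.39. With LPS replicate 3 and control replicate 2 both left out it was -1.22 (limma adjusted p = 0.072).

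Adam17, the convertase that releases tumour necrosis factor, had the tightest LPS values of any member. Its row (transcript cluster 17280207) read 8.56, 7.95 and 8.46 in controls and 8.68, 8.68 and 8.66 after LPS. All LPS values were above all controls, by a narrow gap between the lowest LPS value, 8.66, and the highest control, 8.56. The log2 fold change was 0.35 (SE 0.19, limma adjusted p = 0.90), with a 95% interval from -0.10 to 0.80. It was 0.17 without control replicate 2 and 0.18 after quantile normalization.

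**Figure D4:**
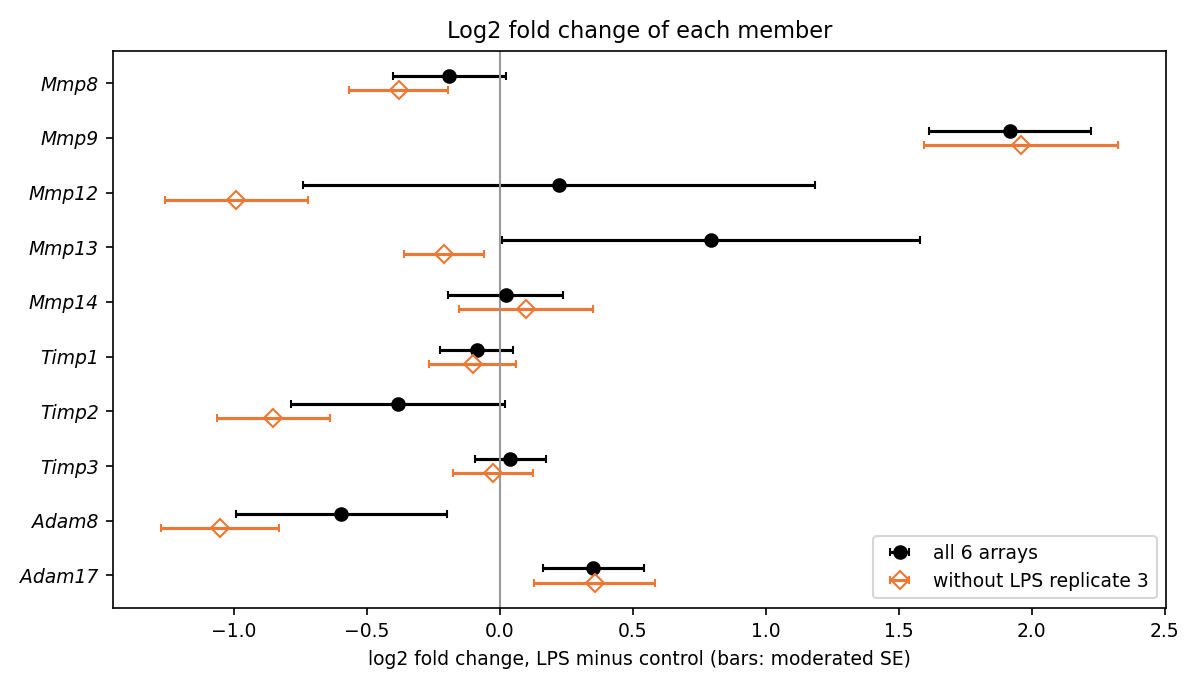
Log2 fold change of each member (x axis, LPS minus control), with all 6 arrays (black circles) and without LPS replicate 3 (open orange diamonds). Bars are moderated standard errors. Mmp9 stays in place, at 1.92 and 1.96, while Mmp12, Timp2 and Adam8 move to the left, to -0.99, -0.85 and -1.05, and Mmp13 to -0.21. Values of Mmp8, Mmp13, Mmp14, Timp1 and Timp3 come from dim rows.

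Of the 10 members 2, Mmp9 and Adam17, had all LPS values above all control values, and 0 had them all below, beside 9.04% and 3.49% of all genes with 1 row each. Without LPS replicate 3 the same 2 were above, and 5 (Mmp8, Mmp12, Mmp13, Timp2 and Adam8) were below, beside 15.3% and 9.03% of all genes. The rows of Mmp8 and Mmp13 among these were dim. This setting was chosen after the data were seen. None of the 5 passed the limma threshold without that array, a fit in which 0.184% of rows were called higher and 0.0145% lower. The mean level of 11 microglia markers was 8.05 in LPS replicate 3, the highest of the 6 arrays, against a range of 7.53 to 7.84 in controls and 7.55 in the lowest LPS array. Of the 11 markers 7 had their highest value in LPS replicate 3, while Aif1, Itgam, Cx3cr1 and C1qa did not, and 0 were called in limma between LPS and control. Neutrophil markers, which could accompany Mmp8 and Mmp9, had a mean level between 2.23 and 2.43 on every array, below the guide. Whether the higher mean of the microglia markers or the brighter rows of LPS replicate 3 have a part in its values for Mmp12, Mmp13, Timp2 and Adam8 was not tested.

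The balance of a protease and its inhibitor was followed as the change of their log2 difference within an array, for 3 pairs. In each pair 1 gene (Timp1, Mmp14 or Timp3) was below the background guide on every array, so the values follow the other gene and do not measure a balance. For Mmp9 minus Timp1 the change was 2.00 (SE 0.32), with LPS above control on every array. The exact two-sided permutation p was 0.10, the smallest that 3 against 3 arrays can give, and 0.30 adjusted over the 3 pairs. For Mmp14 minus Timp2 the change was 0.40 (exact permutation p = 0.60), and it ran from 0.073 without LPS replicate 2 to 0.95 without LPS replicate 3. For Adam17 minus Timp3 it was 0.31 (exact permutation p = 0.30), and it ran from 0.10 without control replicate 2 to 0.42 without control replicate 1.

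In the rest of the family and its partners the called genes were Lcn2, Tnf and Fas. Among all rows 0.193% were called in limma. At an unadjusted p under 0.05 in limma 5.36% of all genes were higher and 1.19% lower. Of 18 other MMP and TIMP genes with a row, 0 were called in limma and 0 had an unadjusted p under 0.05 in either direction. Their log2 fold changes ran from -0.43 to 0.33, with a median of -0.02, and 4 of the 18 were above background. The brightest were Mmp19, at 6.11 ± 0.77 in control and 5.82 ± 0.27 in LPS (SD, n = 3), and the stromelysin Mmp11, at 3.81 ± 0.03 and 3.63 ± 0.19 (SD, n = 3). Of 16 other ADAM and ADAMTS genes, 0 were called in limma, 0 had an unadjusted p under 0.05, and the median was -0.06. Adam10, the other main sheddase of the cell surface, went from 7.89 ± 0.07 to 7.96 ± 0.26 (SD, n = 3), and the aggrecan-cutting Adamts1 from 6.99 ± 0.47 to 7.33 ± 0.21 (SD, n = 3).

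Of 22 regulators of metalloproteinases 1 was called higher and 0 lower, with a median of 0.02. This was Lcn2, a lipocalin whose human form is known to bind MMP9, which read 3.73, 3.86 and 3.70 in controls and 9.83, 9.67 and 9.64 after LPS, wholly apart. With an unadjusted p under 0.05 in limma, 2 of the 22 regulators were higher and 1 lower, beside 5.36% and 1.19% of all genes. Of 20 shed or cleaved surface proteins 2 were called higher and 0 lower, with a median of 0.12. They were Tnf, the main Adam17 substrate, and the death receptor Fas. With an unadjusted p under 0.05 in limma, 6 of these 20 were higher and 1 lower. Fas read 2.99, 2.76 and 3.00 in controls and 4.94, 5.53 and 5.48 after LPS. Its controls lay below the background guide, and the log2 fold change was 2.40 (SE 0.20, limma adjusted p = 0.012). Neither was called without control replicate 1, control replicate 3 or LPS replicate 2 or with a replicate block, and 1 of them without LPS replicate 1 or LPS replicate 3. Of 21 matrix substrates 0 were called in limma, and the median was -0.01. At an unadjusted p under 0.05 in limma 1 of these substrates was higher and 0 lower, beside 5.36% and 1.19% of all genes. The brightest were the laminin subunit Lamc1, from 6.90 ± 0.32 to 7.83 ± 0.20 (SD, n = 3, limma adjusted p = 0.31), and the proteoglycan core protein Ncan, from 3.46 ± 0.13 to 3.53 ± 0.21 (SD, n = 3).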

How the data were processed

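RNA from 6 samples was measured on Affymetrix whole-transcript arrays. The deposited values are log2 expression per transcript cluster, made by the authors using Affymetrix Expression Console (version not given), per the submitters' processing notes. The normalization, background correction and genome build are not given in the sources used here, so fold changes of dim rows may be biased, and the number of arrays limits precision. Genes were named from the platform annotation, of which 23521 rows have 1 symbol, 1814 several and 16010 none. All 10 members matched RefSeq (GRCm38.p6) by gene identifier.

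LPS was compared with control in limma 3.58.1 under R 4.3.3 (linear model and moderated variances, no intensity trend, no filter, no further normalization), with Benjamini-Hochberg adjustment over all 41345 rows and calls at adjusted p under 0.05. SE are moderated standard errors. The fit was tested on simulated data. Members and lists were chosen with earlier results of these data known. The text names all members and, of each list, up to 4 called genes or otherwise the 2 brightest. Some listed genes were not analysed here. Alternatives covered normalization, dim rows, rows tested, variance model, array weights, replicate block and arrays left out. Non-overlap with an array left out was added after the data were seen.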

Additional observations from a re-analysis of the deposited data

How the results depend on the processing

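No member was called lower under any alternative. Members called higher numbered 1, Mmp9, with rows of 1 symbol only, with 1 row per gene (both test fewer rows), with array weights, and when LPS replicate 3 and control replicate 2 were omitted together, and 0 otherwise. Rows called higher numbered 80 in the main setting, 132 with array weights, 7 with the replicate block, and 152 (with 67 lower) with both of those arrays left out. With 1 array left out they numbered 15 to 76 higher and 0 to 14 lower. Deviations of same-numbered arrays from their group means had r of 0.069, -0.26 and -0.22. No control array correlated best with its own number, and of the LPS arrays only replicate 1 did. With 3 arrays in each group, these values cannot show whether or not the replicate numbers pair the arrays. With the replicate block the limma adjusted p of Mmp9 was 0.46. Apart from fits with 1 array left out, log2 fold changes that turned, none of them called, were those of Mmp12 (-0.069 with array weights, -0.77 with both arrays left out), Mmp13 (-0.17 with both left out) and Timp3 (-0.0021 with both left out). With 1 array left out the ranges were -0.99 to 0.90 for Mmp12, -0.21 to 1.31 for Mmp13, -0.38 to 0.012 for Mmp8, -0.14 to 0.19 for Mmp14, -0.025 to 0.092 for Timp3, -0.85 to -0.08 for Timp2 and -1.05 to -0.35 for Adam8. Members with all LPS values below all controls numbered 0 to 5 and above them 2 in each case. With LPS replicate 3 left out Mmp12, Mmp13 and Timp3 turned and the count below all controls was 5. Mmp14 turned without control replicate 1, control replicate 2 or LPS replicate 2, and Mmp8 without LPS replicate 1. The cause of these changes and of the others was not tested. No member had another row to try, and the setting without dim rows gave no value for Mmp8, Mmp13, Mmp14, Timp1 and Timp3.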

Other observations

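Some genes of the 5 lists also set LPS replicate 3 apart from LPS replicates 1 and 2, and are named here after their values were seen. Of 97 listed genes with a row, 10 lay over 1 log2 unit above the mean of the other LPS arrays in LPS replicate 3. Over all genes 2.55% did. Of the listed genes 0 lay over 1 lower, and over all genes, too, fewer lay over 1 lower than over 1 higher. Of these 10 genes, 6 had LPS replicates 1 and 2 below every control and LPS replicate 3 above every control. They were Adam15, Mertk, Plaur, Tnfrsf1a, Trem2 and Tspan14, and Mmp12, Timp2 and Adam8 did the same. Picking genes with a high LPS replicate 3 favours this arrangement, and its share among all genes was not counted. The 10 also included the interleukin 6 receptor chain Il6ra (excess 1.78) and urokinase, Plau (1.13). The excess was 1.74 for the urokinase receptor Plaur, 1.58 for the lipid receptor Trem2 and 1.40 for the membrane protease Adam15. Il6ra read 6.70, 6.72 and 6.93 in controls and 4.88, 5.16 and 6.80 after LPS. Its log2 fold change was -1.17 (limma adjusted p = 0.76) over all arrays and -1.76 (limma adjusted p = 0.044) without LPS replicate 3. In the fit without that array 0.0145% of rows were called lower. All 10 genes were picked for a high LPS replicate 3, so a lower log2 fold change without it follows from the choice. Plau read 9.97, 9.96 and 10.03 in controls and 8.37, 8.65 and 9.63 after LPS, below every control on all LPS arrays. Its log2 fold change was -1.11 (limma adjusted p = 0.50), and -1.48 (limma adjusted p = 0.056) without LPS replicate 3. Trem2 had -0.73 (limma adjusted p = 0.93) over all arrays and -1.26 (limma adjusted p = 0.071) without it. For the others of the 10, without LPS replicate 3, it was -0.88 for Plaur, -0.86 for Mertk, -0.81 for Tspan14 and -0.62 for Adam15. Cd151 had -0.26, Tnfrsf1a -0.24 and Rhbdf2 0.50 in that fit. The limma adjusted p of these other genes ran from 0.38 to 0.90. With LPS replicate 1 left out instead, the log2 fold change was -0.81 for Il6ra, -0.85 for Plau and -0.46 for Trem2, and without LPS replicate 2 it was -0.94, -0.99 and -0.48.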
